A study of Homo sapiens with 33 samples.

Results

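A Cas9 nickase with a guide RNA was compared with green fluorescent protein (GFP) alone in HEK293T cells, an established human embryonic kidney line, by total RNA sequencing. The groups were nCas9 with the HEKsite2 guide (3 libraries) and GFP with no guide (3 libraries), chosen by construct, guide and replicate number in the column names, so that 6 of the 33 libraries of the study entered the comparison. The study tested base editors in these cells, and the labels name nCas9 and GFP as its negative controls. The nickase and editor plasmids make GFP together with their protein, and every group was sorted for all GFP-positive cells 36 to 40 h after transfection. The 3 libraries of nCas9 with a guide to the gene RNF2 are set beside the comparison below. Several limits belong to the design. The groups differ in the nickase, the guide and the plasmids at once, and these cannot be told apart. The labels do not say whether the GFP cells received an empty guide plasmid or what the HEKsite2 guide's sequence is. Nor do they say whether the 3 libraries of a group came from separate cultures. The p-values rest on the spread between libraries within groups, estimated over all 33 libraries, and this spread may be technical. The nCas9 libraries held 8524841, 7214900 and 8438389 counts and the GFP libraries 10719004, 11200406 and 9681156, so the GFP libraries were the deeper in every case. Of 26475 genes listed, 14613 had enough counts to be tested.

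Cas9 nickase keeps a single working nuclease domain, so it is led to a site by its guide and nicks a single DNA strand there; in a base editor it carries a deaminase, and without a deaminase it serves as the control for binding, nicking and the load of making a large foreign protein. Cells that make much foreign or misfolded protein call on heat shock factor 1, which binds heat shock elements before chaperone genes, and on the integrated stress response, in which ATF4 raises genes of amino acid supply. Transfected DNA can also reach cytosolic sensors that induce interferon genes, and a nick is sealed by the single-strand break repair proteins. HEK293T cells carry adenoviral early genes and the large T antigen of SV40, whose products bind RB and p53, so that both the E2F programme of S phase and the p53 response are altered in this line at rest.

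The promoters of 5 genes from the lists below are shown here, as the 250 bases upstream of the RefSeq transcription start, read 5′ to 3′ on the gene's strand (GRCh38.p14). Capitals mark the letters searched for, on either strand: the heat shock element GAANNTTC in HSPA1B (chr6:31827488-31827737, plus strand) and HSPA6 (chr1:161524290-161524539, plus strand), the E2F site TTTNNCGC in E2F1 (chr20:33686386-33686635, minus strand), the cell cycle homology region TTTGAA in PLK1 (chr16:23678639-23678888, plus strand) and the CCAAT box in TOP2A (chr17:40417897-40418146, minus strand).
HSPA1B: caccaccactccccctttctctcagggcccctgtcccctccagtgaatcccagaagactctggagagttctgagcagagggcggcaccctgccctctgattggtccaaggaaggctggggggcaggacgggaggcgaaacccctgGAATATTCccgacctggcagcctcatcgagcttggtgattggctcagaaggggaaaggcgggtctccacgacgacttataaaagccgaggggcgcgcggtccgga
HSPA6: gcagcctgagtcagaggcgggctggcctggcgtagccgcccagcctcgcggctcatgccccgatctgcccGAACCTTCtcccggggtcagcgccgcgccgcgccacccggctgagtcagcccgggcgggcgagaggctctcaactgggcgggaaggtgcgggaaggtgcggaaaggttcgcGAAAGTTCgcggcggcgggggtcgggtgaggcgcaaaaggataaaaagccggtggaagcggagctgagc
E2F1: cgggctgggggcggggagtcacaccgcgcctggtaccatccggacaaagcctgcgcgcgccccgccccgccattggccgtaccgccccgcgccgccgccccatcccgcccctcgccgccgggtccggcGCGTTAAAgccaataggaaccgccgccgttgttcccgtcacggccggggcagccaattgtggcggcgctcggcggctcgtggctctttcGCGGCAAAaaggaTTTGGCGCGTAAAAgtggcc
PLK1: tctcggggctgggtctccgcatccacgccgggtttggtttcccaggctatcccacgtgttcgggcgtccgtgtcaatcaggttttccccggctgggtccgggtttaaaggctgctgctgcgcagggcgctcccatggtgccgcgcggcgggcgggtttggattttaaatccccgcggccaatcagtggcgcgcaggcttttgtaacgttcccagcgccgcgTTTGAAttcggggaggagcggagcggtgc
TOP2A: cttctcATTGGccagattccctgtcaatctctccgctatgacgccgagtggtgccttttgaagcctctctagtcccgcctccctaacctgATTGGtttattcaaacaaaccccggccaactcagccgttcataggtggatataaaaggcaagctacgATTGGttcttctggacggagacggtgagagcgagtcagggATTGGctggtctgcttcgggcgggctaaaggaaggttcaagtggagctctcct
The HSPA1B window held 1 heat shock element and the HSPA6 window 2, yet the genes moved in opposite directions. E2F1 held 4 matches, the nearest ones overlapping, beside its start. PLK1 held 1 match of TTTGAA and TOP2A 4 of the CCAAT box. Each window was marked for 1 motif only. The PLK1 window also holds CCAAT and the TOP2A window TTTGAA, both unmarked. Such a match describes the letters and is not a shown binding site.

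Over all genes 5577 of 14613 (38.2%) were called changed at an adjusted p under 0.05: 2853 (19.5%) were higher in nCas9 and 2724 (18.6%) lower. These shares are the background for the counts of list members below. Most changes were small. The median absolute log2 fold change was 0.45 among the genes called higher and 0.35 among those called lower, and the median over all tested genes was 0.00. At least 2-fold higher and called were 365 genes (2.5%), and at least 2-fold lower 72 (0.493%). Without the third nCas9 library the count of 2-fold lower genes was 112. Throughout, a log2 fold change is nCas9 minus GFP with its standard error from the fit. CPM is the count relative to the scaled library total. By CPM, all 3 nCas9 libraries were above all 3 GFP libraries in 3588 of the 14613 genes tested. They were below all 3 in 3469, so groups without overlap are common in this comparison.

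**Figure D1:**
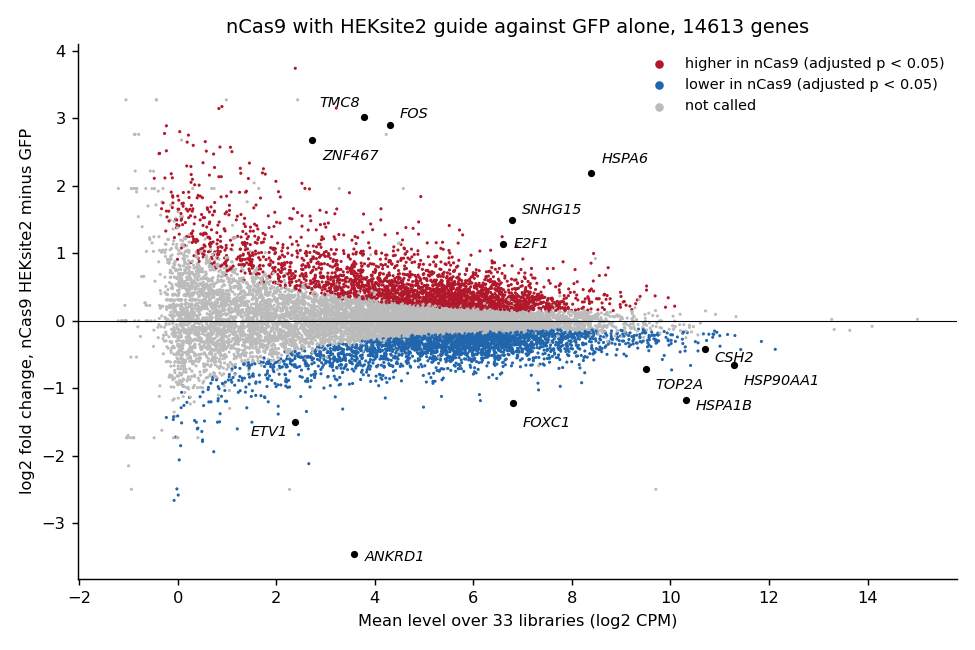
Log2 fold change of nCas9 with the HEKsite2 guide minus GFP (vertical axis) against the mean level over 33 libraries in log2 CPM (horizontal axis), 1 point per gene tested; red points were called higher, blue points lower and grey points were not called, and black points with names are called genes. FOS, TMC8 and ZNF467 lie at the top with log2 fold changes of 2.90, 3.01 and 2.67, and ANKRD1 at the bottom with -3.46.

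Of 27 genes taken as heat shock factor targets, all tested, 13 fell and 3 rose in nCas9, with a median log2 fold change of -0.11. HSPA1B was among those that fell and HSPA6 among those that rose. HSPA1B, which encodes an inducible HSP70, is at chr6:31827735-31830255 in GENCODE 29. It stood at 287, 282 and 277 CPM in the 3 nCas9 libraries and at 631, 631 and 645 CPM in the 3 GFP libraries. All 3 nCas9 libraries were below every GFP library, by a log2 fold change of -1.17 ± 0.058 (adjusted p = 1.64e-21). HSPA6, another inducible HSP70 that is nearly silent without stress, is at chr1:161524540-161526910. Its level was 16.1, 15.1 and 17.6 CPM in nCas9 and 3.09, 3.67 and 3.97 CPM in GFP, again without overlap, and the log2 fold change was 2.19 ± 0.30 (adjusted p = 1.01e-06). HSPA1A, the near-identical neighbour of HSPA1B, did not pass the test (0.50, adjusted p = 0.501), and reads of these copies can be split between them, as can those of HSPA6 and its near copy HSPA7. HSPA7 had 17 counts in nCas9 against 2 in GFP, a ratio of 10.6 (95% exact counting interval 2.51 to 94.4), and its call ended without the third nCas9 library (adjusted p = 0.0612) and without the first (0.0552) or second (0.0624) GFP library. HSPA7 averaged 0.690 CPM in nCas9 and 0.0736 in GFP, beside 40.1 in Target-AID with HEKsite2.

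Other members of this list encode the chaperones that fold kinases, receptors and newly made chains. HSP90AA1, the inducible cytosolic HSP90, stood at 1772, 1547 and 1507 CPM in nCas9 and at 2561, 2518 and 2492 CPM in GFP (-0.65 ± 0.061, adjusted p = 5.69e-12). DNAJB1, the HSP40 that hands clients to HSP70, had 197, 189.8 and 205 CPM against 280.4, 301 and 299 CPM (-0.57, adjusted p = 1.2e-07). HSPA8, the constitutive HSP70, had 2799.9, 2462 and 2347 CPM against 3623, 3307 and 3286 CPM (-0.43, adjusted p = 2.96e-07). In each of these genes the groups did not overlap. Smaller falls were called in the mitochondrial chaperonin genes HSPD1 (-0.29) and HSPE1 (-0.26), the HSP110 gene HSPH1 (-0.21) and the HSP70-HSP90 adaptor STIP1 (-0.20). Leaving out 1 library ended the calls of HSPH1 without the second or the third nCas9 or the first GFP library (adjusted p from 0.0544 to 0.121) and HSPE1 without the third nCas9 or the first GFP library (adjusted p from 0.16 to 0.212). Among the 3 that rose were HSPA6 and CRYAB, a small heat shock protein with 15 counts in nCas9 and 1 in GFP (ratio 18.7, 95% exact counting interval 2.87 to 786). CRYAB averaged 0.624 CPM in nCas9 and 0.0313 in GFP, beside 16.6 in Target-AID with HEKsite2. Its level in the editor groups carried it past the count filter. HSP90AB1 (0.06) and BAG3 (0.21) did not pass. In a list of 19 HSP70, HSP110 and BAG genes, 7 fell and 5 rose, the latter being HSPA6, HSPA7, HSPA14 (0.27), BAG1 (0.27) and BAG5 (0.28). Of the 24 heat shock factor targets with a RefSeq promoter, 9 (37.5%) held GAANNTTC, against 3.99% of the 10654 tested genes with a promoter and 5.85% of all 27305 promoters. The list was taken as targets, so this share describes its members and not the comparison. Of the genes called higher 3.71% held the motif, and of those called lower 4.40%.

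**Figure D2:**
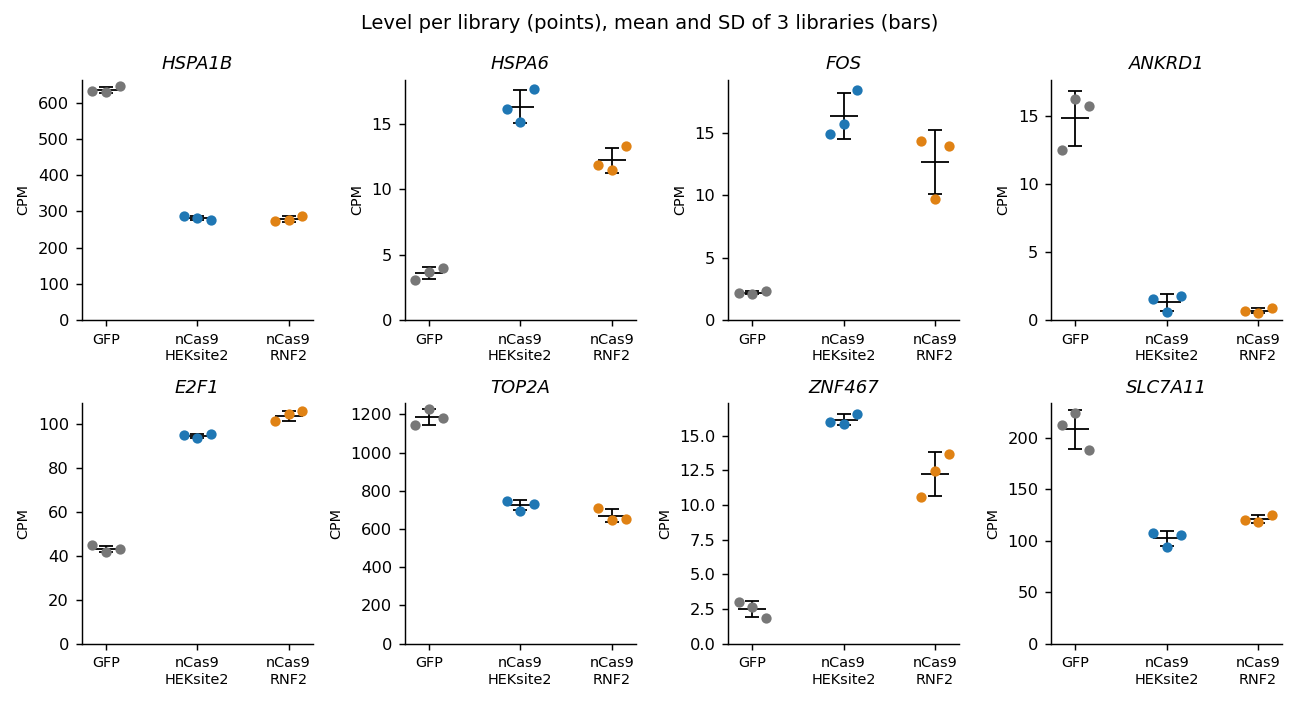
Level in CPM (vertical axes, from 0) of 8 genes in the 3 libraries each of GFP (grey), nCas9 with the HEKsite2 guide (blue) and nCas9 with the RNF2 guide (orange); points are libraries, and bars show the mean and SD of 3. HSPA1B averaged 636 ± 8.06 CPM in GFP and 282 ± 4.89 in nCas9 with HEKsite2, whereas HSPA6 averaged 3.58 ± 0.449 and 16.3 ± 1.26.

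Immediate early genes, which are switched on within minutes of a signal and need no new protein, were mostly higher in nCas9. Of 28 genes on the list 27 were tested, and 16 rose and 3 fell, with a median log2 fold change of 0.72. FOS, which pairs with JUN to form AP-1, is at chr14:75278774-75282230. Its levels were 14.9, 15.7 and 18.5 CPM in nCas9 and 2.19, 2.07 and 2.32 CPM in GFP. The lowest nCas9 library was above the highest GFP library, and the log2 fold change was 2.90 ± 0.21 (adjusted p = 8.26e-18). FOSB, its close relative, rose by 2.07 (adjusted p = 4.03e-06) and the zinc finger factor EGR3 by 1.82 (adjusted p = 0.00129). ATF3, a stress-induced AP-1 partner, had 138, 131 and 145 CPM against 70.3, 73 and 63.6 CPM (1.00 ± 0.077, adjusted p = 2.09e-14). KLF10, a zinc finger repressor, had 125, 103 and 121 CPM against 67.5, 67.2 and 63.2 CPM (0.82, adjusted p = 7.72e-13). For JUN the change was smaller, with 217, 246 and 250.1 CPM against 156, 182 and 186 CPM (0.44, adjusted p = 3.9e-07). Also called higher were JUNB (0.99), EGR1 (1.00), NR4A2 (0.97) and IER2 (0.84). The 3 that fell were MYC, the growth regulator (-0.75, adjusted p = 1.64e-06), KLF6 (-0.42) and IER5 (-0.36). Some of these calls rested on single libraries and ended for EGR1 without the second nCas9 library (adjusted p = 0.0709), NR4A2 without the first or the third nCas9 or the second GFP library (adjusted p from 0.0548 to 0.0921) and IER5 without the first nCas9 or the third GFP library (adjusted p from 0.127 to 0.139).

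Dual-specificity phosphatases switch MAP kinases off again and are induced by them. Of 17 tested genes for dual-specificity phosphatases and other MAP kinase feedback proteins, 8 rose and 2 fell (median 0.42). DUSP4, a nuclear phosphatase, had 4.97, 7.01 and 5.65 CPM in nCas9 and 2.19, 2.54 and 3.42 CPM in GFP (1.11 ± 0.22, adjusted p = 3.85e-05). DUSP1 had 34.6, 38 and 38.3 CPM against 23.4, 22.3 and 28 CPM (0.59, adjusted p = 5.45e-06), and the groups of both genes were apart. DUSP8 (0.73), DUSP10 (0.71), DUSP5 (0.68), DUSP14 (0.44), DUSP7 (0.42) and DUSP16 (0.30) were the others called higher, and the 2 lower ones were the receptor kinase inhibitors SPRY1 (-0.35) and SPRED1 (-0.27). Leaving out 1 library ended the calls of DUSP10 without the first nCas9 or the first GFP library (adjusted p from 0.0527 to 0.0667), DUSP5 without the first or the second GFP library (adjusted p from 0.0924 to 0.191) and DUSP16 without the third nCas9 or the first or the third GFP library (adjusted p from 0.0639 to 0.0961). It also ended the calls of SPRY1 without the second or the third nCas9 or the first, the second or the third GFP library (adjusted p from 0.0557 to 0.205) and SPRED1 without the first or the second nCas9 or the second or the third GFP library (adjusted p from 0.0945 to 0.123). ERF, a repressor that ERK keeps out of the nucleus, had 79.3, 86.4 and 83.9 CPM against 37.6, 31.3 and 34.4 CPM, without overlap (1.27 ± 0.081, adjusted p = 9.77e-18). ETV1, an ETS factor, was lower, with 4.12, 4.49 and 3.65 CPM against 11.3, 12.6 and 10.6 CPM (-1.50, adjusted p = 2.29e-08).

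Genes of the integrated stress response went both ways: of 37 tested, 14 rose (37.8%) and 12 fell (32.4%), with a median of 0.09. ATF4 itself stood at a log2 fold change of 0.07 (adjusted p = 0.368). Among those that rose was CTH, which makes cysteine from cystathionine, with 64.8, 63.9 and 65.8 CPM in nCas9 and 29.8, 34.9 and 29.4 CPM in GFP (1.04 ± 0.08, adjusted p = 6.02e-15). SESN2, which restrains mTORC1 when leucine is short, had 181, 189 and 185 CPM against 107, 115 and 106 CPM (0.76, adjusted p = 6.16e-11). DDIT3, the factor CHOP (0.69), TRIB3, a pseudokinase (0.71), and PPP1R15A, the subunit that dephosphorylates eIF2 alpha (0.46), were called higher too. Against them stood SLC7A11, the cystine importer at chr4:138164097-138242349, with 108, 93.9 and 105 CPM in nCas9 and 212, 225 and 188 CPM in GFP. No nCas9 library reached a GFP library, and the log2 fold change was -1.02 ± 0.072 (adjusted p = 8.15e-16). ASNS, asparagine synthetase, also fell, from 377, 359.8 and 346 CPM in GFP to 261, 234 and 229.6 CPM in nCas9 (-0.58, adjusted p = 1.09e-10), as did the tRNA synthetase genes AARS (-0.51) and EPRS (-0.40) and the serine synthesis genes PSAT1 (-0.26) and PHGDH (-0.19). The call ended for PHGDH without the second or the third nCas9 or the first GFP library (adjusted p from 0.0673 to 0.115). Among 24 genes of the endoplasmic reticulum unfolded protein response 6 rose and 6 fell (median 0.02). MANF, a secreted survival factor of the reticulum, had 129, 119.7 and 104 CPM against 86.5, 72 and 76 CPM (0.59, adjusted p = 3.75e-09), and SEL1L, part of the machinery that degrades misfolded proteins, had 103, 95.2 and 101 CPM against 128, 124 and 127 CPM (-0.34, adjusted p = 6.34e-06). Of 24 tested NRF2 and oxidative stress genes 8 rose (33.3%) and 7 fell (29.2%). MAFF, a small MAF partner, rose to 7.88, 6.73 and 7.29 CPM from 1.1, 2.82 and 1.66 CPM in GFP (1.95, adjusted p = 3.38e-09), while GCLM, a subunit of the enzyme that starts glutathione synthesis, fell to 71.7, 62.7 and 62.6 CPM from 99.3, 93.3 and 94.1 CPM (-0.54, adjusted p = 5.59e-09).

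Among the cell cycle genes, those of G1/S and those of mitosis were counted apart. Among 33 genes of the G1/S transition and DNA replication 23 rose and 3 fell, with a median log2 fold change of 0.31. E2F1, the transcription factor that drives these genes, is at chr20:33675683-33686404. It stood at 94.8, 93.4 and 95.2 CPM in nCas9 and 44.6, 41.8 and 42.9 CPM in GFP, so that the lowest nCas9 library was more than 2-fold above the highest GFP library, and its log2 fold change was 1.13 ± 0.064 (adjusted p = 1.44e-19). E2F2 had 69.8, 65.5 and 66.8 CPM against 33.1, 29.7 and 36.3 CPM (1.03, adjusted p = 3.51e-10). CCNE1, the cyclin that carries cells into S phase, had 30.4, 34.2 and 31.6 CPM against 20.03, 19.7 and 17.3 CPM (0.75, adjusted p = 1.87e-09). MCM5, a subunit of the replicative helicase, had 376, 355 and 348 CPM against 202, 190.4 and 205 CPM (0.85, adjusted p = 1.76e-15), and CDC6, which loads that helicase, had 290.3, 271 and 271 CPM against 181, 186 and 191 CPM (0.58, adjusted p = 1.83e-10). The 3 that fell were GINS1 (-0.40), the polymerase gene POLE (-0.38) and the primase gene PRIM1 (-0.20), whose call ended when any 1 library but the first nCas9 library was left out (adjusted p from 0.0508 to 0.136). TTTNNCGC was found in 13 of the 28 promoters of this list (46.4%), against 8.94% of the tested genes with a promoter and 5.93% of all promoters. That share describes the list members and not the comparison. Among the genes called higher 10.3% held the motif, and among those called lower 9.48%.

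In the list of 37 genes of G2 and mitosis none rose and 30 fell, with a median of -0.36. TOP2A, the topoisomerase that untangles sister chromatids, is at chr17:40388516-40417950 and had 747, 696 and 731 CPM in nCas9 and 1145, 1227 and 1183 CPM in GFP. Its groups were well apart (-0.71 ± 0.061, adjusted p = 3.27e-13). TTK, the spindle checkpoint kinase, had 134, 125 and 126 CPM against 204, 202 and 203 CPM (-0.66, adjusted p = 2.62e-13). KIF11, the motor that separates spindle poles, had 211, 207 and 193 CPM against 305, 308 and 296 CPM (-0.57, adjusted p = 8.78e-12). PLK1, the mitotic kinase whose promoter is printed above, fell by 0.52 on the log2 scale (adjusted p = 3.18e-09), and CCNB1, the mitotic cyclin, by 0.32 (adjusted p = 5.17e-05). DEPDC1, a mitotic gene outside the list, had 191, 189 and 198 CPM against 384, 376 and 373 CPM (-0.97 ± 0.052, adjusted p = 3.79e-20), and NCAPD2, a condensin subunit, 240.3, 223 and 228 CPM against 371, 377 and 378 CPM (-0.70, adjusted p = 1.22e-15). The 7 that did not pass were CDC25C (-0.17), FOXM1 (-0.14), AURKB (-0.07), PRC1 (-0.02), KIF2C (-0.02), BIRC5 (0.01) and CKAP2 (0.09). TTTGAA was present in 16 of 31 promoters of this list (51.6%), against 8.22% of tested genes and 13.6% of all promoters, and the CCAAT box in 24 of 31 (77.4%), against 35.1% of tested genes and 33% of all promoters. The list shares describe its members and not the comparison. TTTGAA was held by 6.81% of the genes called higher and 10.3% of those called lower, and the CCAAT box by 37.3% and 35.4%. In bulk RNA, fewer cells in a phase and less RNA per cell cannot be told apart.

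Replication-dependent histone genes, whose messages end in a stem-loop in place of a poly(A) tail, were lower as well: of 40 tested among 57, 17 fell and 1 rose (median -0.29). HIST1H1C, the linker histone H1.2, had 1158, 1339.6 and 1289 CPM in nCas9 and 1711, 1978 and 2295 CPM in GFP (-0.66 ± 0.13, adjusted p = 0.000235). HIST1H2BO had 202, 228 and 222 CPM against 314, 349.9 and 389 CPM (-0.69, adjusted p = 6.58e-06). The GFP libraries themselves differed in these genes, the first being lowest in both, but all were above the nCas9 libraries. HIST1H3D alone rose, to 5.7, 6.03 and 7.76 CPM from 2.09, 1.88 and 2.21 CPM (1.66, adjusted p = 4.97e-07). Leaving out any 1 of the 6 libraries ended the call of HIST2H3D (adjusted p from 0.0539 to 0.159). Single left-out libraries also ended those of HIST1H2AK, HIST1H3B, HIST1H4E, HIST1H2BK, HIST1H3H, HIST1H2BG and HIST1H4A. Near-identical copies in this family can share reads.

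**Figure D3:**
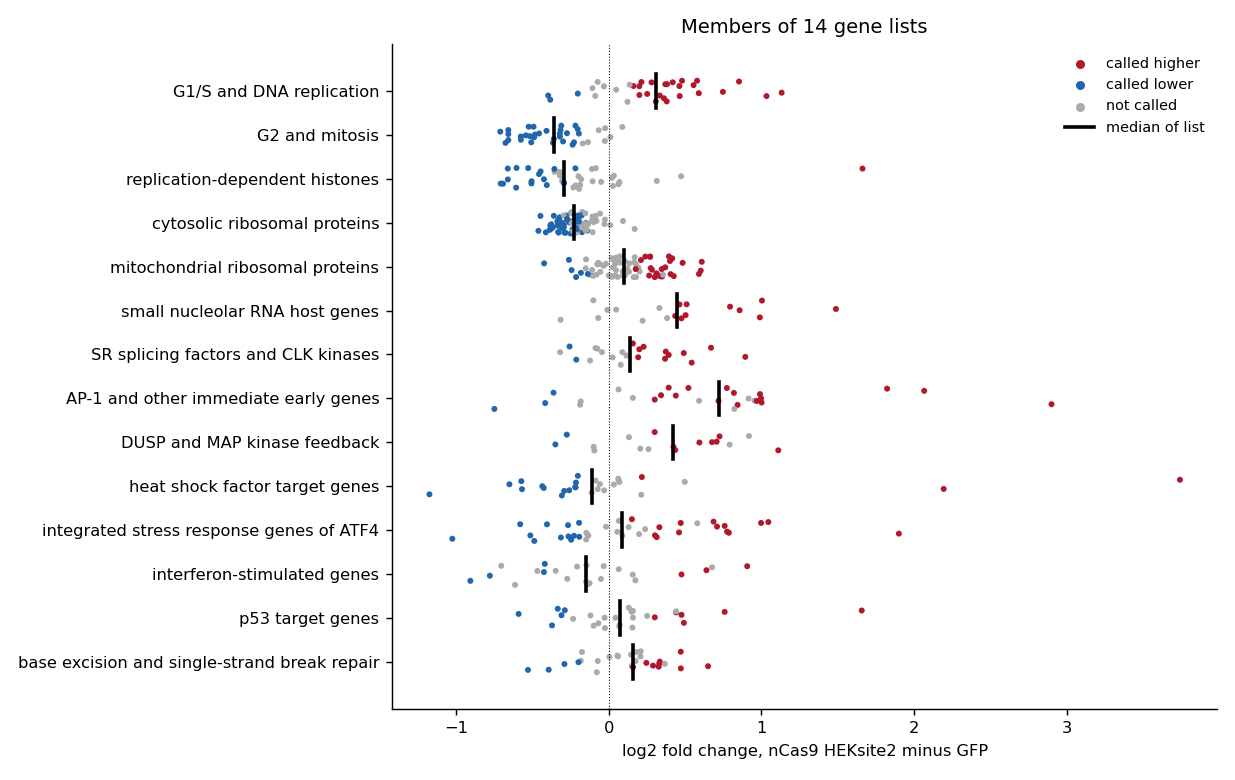
Log2 fold change of nCas9 with the HEKsite2 guide minus GFP (horizontal axis) for the tested members of 14 gene lists (rows); points are genes, red called higher, blue called lower and grey not called, and the black bar is the median of the list. The row of G2 and mitosis lies to the left of 0 with a median of -0.36, and the rows of G1/S, small nucleolar RNA host genes and immediate early genes lie to the right with medians of 0.31, 0.45 and 0.72.

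Genes of the cytosolic ribosome were lower by small amounts. All 77 were tested, 48 fell and none rose, with a median log2 fold change of -0.22. RPL3, a protein of the large subunit, had 1258, 1218 and 1235 CPM in nCas9 and 1667, 1695 and 1694 CPM in GFP (-0.45 ± 0.055, adjusted p = 6.43e-09). RPL7A had 1374, 1272 and 1237 CPM against 1804, 1731 and 1806 CPM (-0.46, adjusted p = 7.24e-07), and RPS25, of the small subunit, 416, 395 and 368 CPM against 521, 517 and 529 CPM (-0.41, adjusted p = 6.44e-07). Many of these genes have processed pseudogenes that can take a part of their reads. Of the genes of the mitochondrial ribosome, which is built from other proteins, 75 were tested, and of these 24 rose and 6 fell (median 0.10), among them MRPL1 with 55.2, 53.1 and 48.5 CPM against 35.8, 34.7 and 32.1 CPM (0.61, adjusted p = 1.78e-08) and, lower, MRPS33 with 41.2, 47.3 and 44.1 CPM against 60.9, 56.6 and 60.03 CPM (-0.42, adjusted p = 2.77e-05). Translation initiation factors went both ways, with 9 of 34 higher and 12 lower: EIF4G3, a scaffold of the cap-binding complex, fell by 0.67 (adjusted p = 3.13e-12), and EIF5, which triggers GTP hydrolysis at the start codon, rose by 0.46 (adjusted p = 3.6e-09).

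Host genes of small nucleolar RNAs, several of whose spliced transcripts are degraded by nonsense-mediated decay, were higher: of 18 tested 10 rose and none fell (median 0.45). SNHG15 at chr7:44983023-44986961 had 104, 106 and 104 CPM in nCas9 and 37.9, 39.5 and 34.5 CPM in GFP. The lowest nCas9 library held more than 2-fold the highest GFP library, and the log2 fold change was 1.49 ± 0.085 (adjusted p = 1.25e-18). ZFAS1 had 88.9, 81 and 88.1 CPM against 54.7, 44 and 43.8 CPM (0.86, adjusted p = 2.99e-12), SNHG17 35.9, 33.9 and 35.9 CPM against 20.9, 15.7 and 16.1 CPM (1.00, adjusted p = 1.51e-10), and GAS5 rose by 0.50 (adjusted p = 2.34e-06). Of the 18 factors of nonsense-mediated decay 7 rose and 2 fell. UPF3B, which links the exon junction to that machinery, had 87.1, 76.7 and 71.4 CPM against 47.3, 48.1 and 43.6 CPM (0.76, adjusted p = 8.5e-11), and NBAS, the largest fall, 82.6, 88.8 and 89.2 CPM against 119, 120.1 and 131 CPM (-0.51, adjusted p = 5.42e-08). Among 22 SR splicing factors and their kinases 11 rose and 2 fell (median 0.14). SRSF6 had 443, 395 and 380.2 CPM against 265, 253 and 248 CPM (0.67, adjusted p = 1.49e-12), and CLK4, a kinase of SR proteins, 29.6, 25.8 and 28.7 CPM against 14.6, 16.7 and 13.8 CPM (0.89, adjusted p = 4.75e-09). PTBP2, a neuronal splicing repressor at chr1:96721665-96823738, had the smallest p-value of the named genes that rose, with 149, 138 and 146 CPM against 67.2, 67.1 and 67.2 CPM (1.10 ± 0.061, adjusted p = 6.97e-20). Abundant nuclear and structural RNAs showed 1 call among 21, RNU12, the minor spliceosome RNA (-0.63, adjusted p = 0.0362), whose groups overlapped and whose call ended without the first or the third nCas9 or the second or the third GFP library (adjusted p from 0.0885 to 0.163).

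Repair of a nick runs through PARP enzymes, the XRCC1 scaffold and a ligase. Among 27 genes of base excision and single-strand break repair 9 rose (33.3%) and 4 fell (14.8%), with a median of 0.16. Over all genes 19.5% rose and 18.6% fell. XRCC1, the scaffold of single-strand break repair, had 65, 56.5 and 54 CPM in nCas9 and 39, 35.9 and 37 CPM in GFP (0.65 ± 0.08, adjusted p = 6.16e-09). PARP2, a sensor of nicks, had 68.4, 64.4 and 64.3 CPM against 49.5, 48 and 44.5 CPM (0.47, adjusted p = 8.2e-07), while its relative PARP1 fell by 0.29 (adjusted p = 0.000235). LIG3, the ligase bound to XRCC1, was lower, with 70.7, 63.7 and 65.3 CPM against 98.8, 93.8 and 95.6 CPM (-0.53, adjusted p = 3.02e-09). UNG, the uracil glycosylase, rose by 0.33 and TDG, the thymine glycosylase, fell by 0.39. Among the repair genes, the call of PARG ended when any 1 of the 6 libraries was left out (adjusted p from 0.0682 to 0.121). That of OGG1 ended without the first or the second nCas9 or the first or the third GFP library (adjusted p from 0.0587 to 0.114). TDP1 lost its call without any 1 library but the third GFP library (adjusted p from 0.0588 to 0.104). Of 27 double-strand break repair genes 6 rose (22.2%) and 10 fell (37.0%), with a median of -0.07. PRKDC, the DNA-dependent kinase of end joining, had 828, 1024 and 1082 CPM against 1427, 1709 and 1719.9 CPM (-0.73, adjusted p = 4.97e-07), and XRCC3, a homologous recombination gene, 92, 78.8 and 89.99 CPM against 55.3, 51.2 and 50.4 CPM (0.74, adjusted p = 2.34e-09). In mismatch repair 7 of 22 rose (31.8%), EXO1 with 0.55 (adjusted p = 1.69e-09) at their head, and 3 fell (13.6%). Of 27 p53 target genes 6 rose (22.2%) and 5 fell (18.5%), shares near those over all genes of 19.5% and 18.6% (median 0.07). PLK3 had 5.82, 6.59 and 9.18 CPM against 1.89, 2.82 and 2.1 CPM (1.66 ± 0.22, adjusted p = 1.3e-08). CDKN1A, the p21 inhibitor, rose by 0.49 (adjusted p = 0.0451), and MDM2, the ligase for p53, fell by 0.37 (adjusted p = 0.025). Leaving out 1 library ended the calls of CDKN1A without the second or the third nCas9 or the first GFP library (adjusted p from 0.111 to 0.215) and MDM2 without the first nCas9 or the second or the third GFP library (adjusted p from 0.0828 to 0.171).

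Of 35 interferon-stimulated genes 23 could be tested. The 3 that rose (13.0%) and the 4 that fell (17.4%) were near or below the shares over all genes of 19.5% and 18.6%, and the median log2 fold change was -0.15. IFIT1, an antiviral RNA-binding protein, had 2.79, 3.79 and 4.94 CPM in nCas9 and 6.68, 7.99 and 6.95 CPM in GFP (-0.91 ± 0.22, adjusted p = 0.000698). ISG15, a ubiquitin-like protein, had 2.91, 4.07 and 2.47 CPM against 1.39, 1.41 and 2.21 CPM (0.91, adjusted p = 0.00611), and its call ended without the second nCas9 library (0.70, adjusted p = 0.0704). Of 14 tested sensors and cytokines, among 26, 4 rose (28.6%) and 4 fell (28.6%). TBK1, the kinase below the sensors, had 38.2, 40.1 and 41.9 CPM against 56.1, 60.9 and 57.1 CPM (-0.53, adjusted p = 2.75e-07), and IRF3, its substrate, 53.5, 47.7 and 44.6 CPM against 35.6, 29.6 and 30.9 CPM (0.60, adjusted p = 4.97e-07). Among 12 tested deaminase genes of 21, ADAT3, of the tRNA adenosine deaminase, had 8.85, 9.82 and 8.59 CPM against 3.79, 4.23 and 3.75 CPM (1.20, adjusted p = 1.4e-06), ADAR, the main mRNA adenosine deaminase, 329.8, 331 and 339 CPM against 383, 407 and 412 CPM (-0.27, adjusted p = 0.000145), and APOBEC3C 8.12, 8.97 and 10 CPM against 10.8, 13.7 and 13.6 CPM (-0.49, adjusted p = 0.00351).

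ANKRD1 showed the largest fall of any named gene. It encodes an ankyrin repeat protein, is a textbook target of YAP and TEAD, and is at chr10:90912096-90921276. Its levels were 1.58, 0.561 and 1.76 CPM in nCas9 and 12.6, 16.3 and 15.8 CPM in GFP, far apart (-3.46 ± 0.28, adjusted p = 7.92e-18). Of 18 tested genes on the YAP list 3 rose (16.7%) and 4 fell (22.2%), with a median of -0.13. Over all genes the shares were 19.5% and 18.6%. CTGF and CYR61, the best known members of the list, stood at 0.06 (adjusted p = 0.896) and -0.19 (adjusted p = 0.457). AJUBA, a LIM protein that restrains the LATS kinases, had 34.2, 30.3 and 31.4 CPM against 24.4, 19.8 and 23 CPM (0.52, adjusted p = 4.67e-06). PTPN14 and RBMS3 were called lower, but their groups overlapped and each call ended without single libraries: PTPN14 at -0.40 lost it without the first nCas9 library (adjusted p = 0.130) and without the second (0.0798) or the third (0.0821) GFP library, and RBMS3 at -0.49 without the second (0.102) or the third (0.127) nCas9 library and the first (0.0821) or the third (0.248) GFP library. AMOTL1 at -0.18 lost it without the first nCas9 library (0.153) or the third GFP library (0.148).

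The 12 largest rises were mostly of genes outside the lists. TMC8, a channel-like membrane protein gene at chr17:78130770-78142968, had 28.3, 28 and 27.2 CPM in nCas9 and 3.39, 3.48 and 3.42 CPM in GFP (3.01 ± 0.32, adjusted p = 7.13e-09). ZNF467, a zinc finger gene at chr7:149764182-149773479, had 16, 15.8 and 16.6 CPM against 2.99, 2.63 and 1.88 CPM (2.67 ± 0.21, adjusted p = 4.66e-16). The nCas9 libraries of both genes were within a narrow range and far above GFP. CYP1A1, the cytochrome induced through the aryl hydrocarbon receptor, had 5.21, 2.8 and 3.53 CPM against 0.797, 0.658 and 0.552 CPM (2.50, adjusted p = 8.86e-06), and NOTUM, the secreted enzyme that inactivates Wnt, 4.49, 2.94 and 4.12 CPM against 0.598, 1.22 and 0.662 CPM (2.19, adjusted p = 1.29e-07). KIAA1324 (2.57), AMER2 (2.34), CHRM4, a muscarinic receptor (2.26), and FAM131B (2.25) completed the 12 largest rises and were below 2 CPM in every GFP library. At higher levels, DAXX, a histone H3.3 chaperone, had 174, 161 and 158 CPM against 86.6, 88.2 and 86.9 CPM (0.92, adjusted p = 1.08e-17), TST, a mitochondrial sulfurtransferase, 44.7, 48.2 and 44.9 CPM against 17.9, 16.4 and 15.6 CPM (1.46, adjusted p = 1.13e-17), and KIF5C, a neuronal kinesin, 58.3, 59.2 and 62.7 CPM against 17.4, 24.4 and 26 CPM (1.41, adjusted p = 9.56e-16).

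Among the genes that fell, FOXC1, a forkhead transcription factor at chr6:1609972-1613897, had the smallest p-value of the named genes. It stood at 81.7, 90.2 and 93.3 CPM in nCas9 and 206, 202 and 209 CPM in GFP (-1.22 ± 0.06, adjusted p = 1.55e-21), and the groups were more than 2-fold apart at their nearest libraries. TSHZ1, a homeobox zinc finger gene, had 22.4, 24.8 and 25.5 CPM against 59.5, 57.7 and 59.3 CPM (-1.28, adjusted p = 1.33e-17). The 12 smallest p-values among the falls included those of PCDH7, ROBO1 and SEMA3C. PCDH7, a protocadherin, had 58.3, 59.3 and 62 CPM against 129, 128 and 126 CPM (-1.09), ROBO1, the Slit receptor, 137, 143 and 147 CPM against 259, 277 and 273 CPM (-0.92), and SEMA3C, a secreted semaphorin, 35.5, 36.3 and 39.5 CPM against 70.4, 81.6 and 90.4 CPM (-1.12). COL3A1, a fibrillar collagen, had 4, 5.61 and 4.35 CPM against 10.6, 9.97 and 14.9 CPM (-1.34, adjusted p = 2.71e-07). ZBED8 (-1.31), PHOSPHO2 (-1.38), RBM43 (-1.60), DNAJC3-AS1 (-1.50), SH2D2A (-1.29), BCYRN1, a small neuronal RNA (-1.26), and MYBPC2 (-1.68) were the other large falls. MYBPC2 was below 2 CPM in all 6 libraries, and its call ended without the third nCas9 library (adjusted p = 0.0931) or the second GFP library (0.0915). In Target-AID with HEKsite2 MYBPC2 averaged 25.8 CPM.

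Further lists are given against the background of 19.5% higher and 18.6% lower. Cholesterol and fatty acid synthesis had 6 of 31 higher and 11 lower. Hypoxia and glycolysis had 6 of 31 higher and 9 lower, with the glucose transporter SLC2A3 at 11.2, 9.53 and 10.5 CPM against 3.59, 4.61 and 5.08 CPM (1.24, adjusted p = 5.35e-08). Of 31 proteasome subunits 8 rose and 2 fell (median 0.09), and of 37 subunits of respiratory complex I 3 rose and 4 fell. Polycomb repressive complex 1, to which RNF2 belongs, had 5 of 22 higher and 4 lower. RNF2 stood at 68, 63.5 and 60.8 CPM in nCas9 with HEKsite2 and 73.1, 76.5 and 87.2 CPM in GFP (-0.30 ± 0.074, adjusted p = 0.00113). Of 5 tested metallothionein and zinc genes 1 was called, the zinc sensor MTF1 (0.28, adjusted p = 0.0402), and it lost its call without the second (0.153) or the third (0.0882) nCas9 library and the first (0.141) or the third (0.117) GFP library.

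The share of genes called varied with base composition, gene length and mean level. Of the genes tested 13790 (94.4%) were matched by symbol to GENCODE 29. Median transcript GC content was 53.7% among those called higher, 43.2% among those called lower and 48.2% over all, and the median genomic length was 20990, 59730 and 32570 bases. With the genes cut into 10 bins of equal size, 10.7% of the bin lowest in GC were called higher and 34.2% lower, and of the highest bin 34.2% were higher and 4.42% lower. By genomic length, the bin of the shortest genes had 18.1% higher and 9.94% lower, the second bin 31.5% and 8.99%, and the bin of the longest genes 7.98% and 30.2%, so that the share higher fell with length only from the second bin on. By mean level over 33 libraries, the lowest bin had 11.1% higher and 2.76% lower, and the highest bin 15.4% and 37.4%. The counts of list members above were not set against genes of like level. Chromosome 19, with a median GC of 58.6%, had 29.9% of its genes higher and 9.0% lower, and chromosome 4, at 42.6%, had 11.1% and 27.9%. With offsets for length and GC in the fit, chosen after seeing the data, 5529 genes were called, and 78.2% of the 5577 calls kept their direction and call. The G2 and mitosis list then had 32 lower and none higher, G1/S 18 higher and 4 lower, ribosomal proteins 65 lower and none higher, immediate early genes 13 higher and 3 lower and heat shock factor targets 2 higher and 14 lower. The cause of these trends was not tested.

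**Figure D4:**
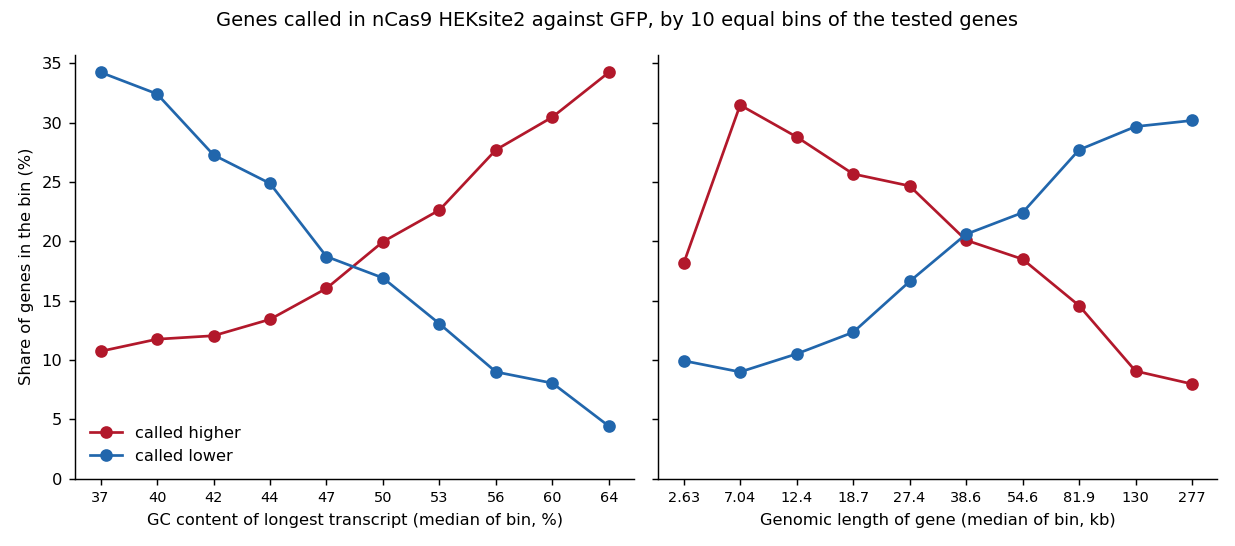
Share of genes called higher (red) and lower (blue) in nCas9 with the HEKsite2 guide against GFP, in percent (vertical axis), in 10 equal bins of the tested genes ordered by transcript GC content or by length (horizontal axes, labelled with the median of each bin). The share called higher grew from 10.7% to 34.2% from the lowest to the highest bin of GC content, and the share called lower went from 34.2% to 4.42%.

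The nCas9 libraries with the RNF2 guide gave the same comparison with another guide. They share the GFP libraries with it, so the values are set side by side only. In that comparison 6029 genes were called (41.3%), 3056 higher (20.9%) and 2973 lower (20.3%). HSPA1B stood at 273, 278 and 288 CPM in the RNF2-guide libraries (-1.19 against GFP, beside -1.17 with HEKsite2), HSPA6 at 11.8, 11.5 and 13.3 CPM (1.77 beside 2.19) and FOS at 14.4, 9.73 and 14 CPM (2.53 beside 2.90). E2F1 had 101, 104 and 106 CPM (1.27 beside 1.13), TOP2A 709, 648 and 651 CPM (-0.82 beside -0.71), SNHG15 105, 109 and 126 CPM (1.60 beside 1.49) and ANKRD1 0.696, 0.499 and 0.897 CPM (-4.39 beside -3.46). For these 7 genes the difference between the guides was not called (adjusted p from 0.148 to 0.954). With the RNF2 guide the numbers of genes called higher and lower were 0 and 27 in the list of G2 and mitosis, 22 and 5 in that of G1/S, 0 and 63 in that of ribosomal proteins and 16 and 2 among the immediate early genes. Some other lists moved more between the guides. Proteasome subunits had 5 higher and 6 lower, beside 8 and 2 with HEKsite2. Subunits of complex I had 0 and 13, beside 3 and 4, and mismatch repair genes 6 and 7, beside 7 and 3. Tested directly, the guides differed in 1, 1 and 3 members of these lists.

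Tested directly, the guides differed in 315 genes (2.16%), of which 92 (0.63%) were higher and 223 (1.53%) lower with the RNF2 guide. RNF2 itself, the gene that guide targets, had 34.6, 42 and 33.2 CPM with its own guide against 68, 63.5 and 60.8 CPM with HEKsite2, a log2 difference of -0.81 ± 0.083 (adjusted p = 1.51e-09). NCAPD2, lower than GFP with both guides, was lower still with the RNF2 guide, at 179.6, 166 and 172 CPM (-0.42 ± 0.053, adjusted p = 5.24e-07). CDC6 was higher than GFP with both guides and less so with RNF2, at 227, 211 and 212 CPM (-0.36, adjusted p = 0.000288). USP18, an interferon-stimulated protease, had 14.7, 11.5 and 13.5 CPM with HEKsite2, 20.2, 19.8 and 19.6 with RNF2 and 17.2, 16.3 and 20.2 in GFP (0.58, adjusted p = 0.00376). FDXR, a mitochondrial reductase induced by p53, had 25.8, 33.5 and 32.7 CPM with HEKsite2, 18.6, 22.2 and 22.4 with RNF2 and 21.4, 23.7 and 20.7 in GFP (-0.54, adjusted p = 0.0242). The count between guides was 110 without the first HEKsite2 library, 196 without the second RNF2 library and 99 without the third.

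Set among the editor groups, the nCas9 and GFP levels took different places. FOS averaged 2.19 ± 0.124 CPM in GFP and from 12.7 ± 2.57 in nCas9 with RNF2 to 27.7 ± 3.19 in ABEmax with HEKsite2 elsewhere, so every group with an editor or nickase was above GFP. TOP2A averaged 1185 ± 41.1 CPM in GFP and from 602 ± 50.8 in Target-AID with RNF2 to 744 ± 51 in SpACE with HEKsite2 in the others. RPL3 averaged 1685 ± 15.8 CPM in GFP and from 1130.0 ± 51.6 in nCas9 with RNF2 to 1270.0 ± 29.2 in miniABEmax-V82G with HEKsite2. HSPA1B differed from these: nCas9 with either guide was lowest, at 282 ± 4.89 and 279.6 ± 7.65 CPM, GFP followed at 636 ± 8.06, and the deaminase groups ran from 1005 ± 25.5 in ABEmax with RNF2 to 2953 ± 272 in Target-AID with HEKsite2. ANKRD1 was likewise lowest in nCas9, at 1.3 ± 0.647 and 0.697 ± 0.199 CPM, with GFP at 14.9 ± 2.02 between ABEmax with RNF2 at 4.22 ± 0.631 and Target-AID with HEKsite2 at 34.1 ± 0.919. For ZNF467 nCas9 was highest, at 16.1 ± 0.39 and 12.2 ± 1.59 CPM, and GFP was lowest at 2.5 ± 0.568, next to Target-AID with HEKsite2 at 3.3 ± 0.576. No test was made across these levels.

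**Figure D5:**
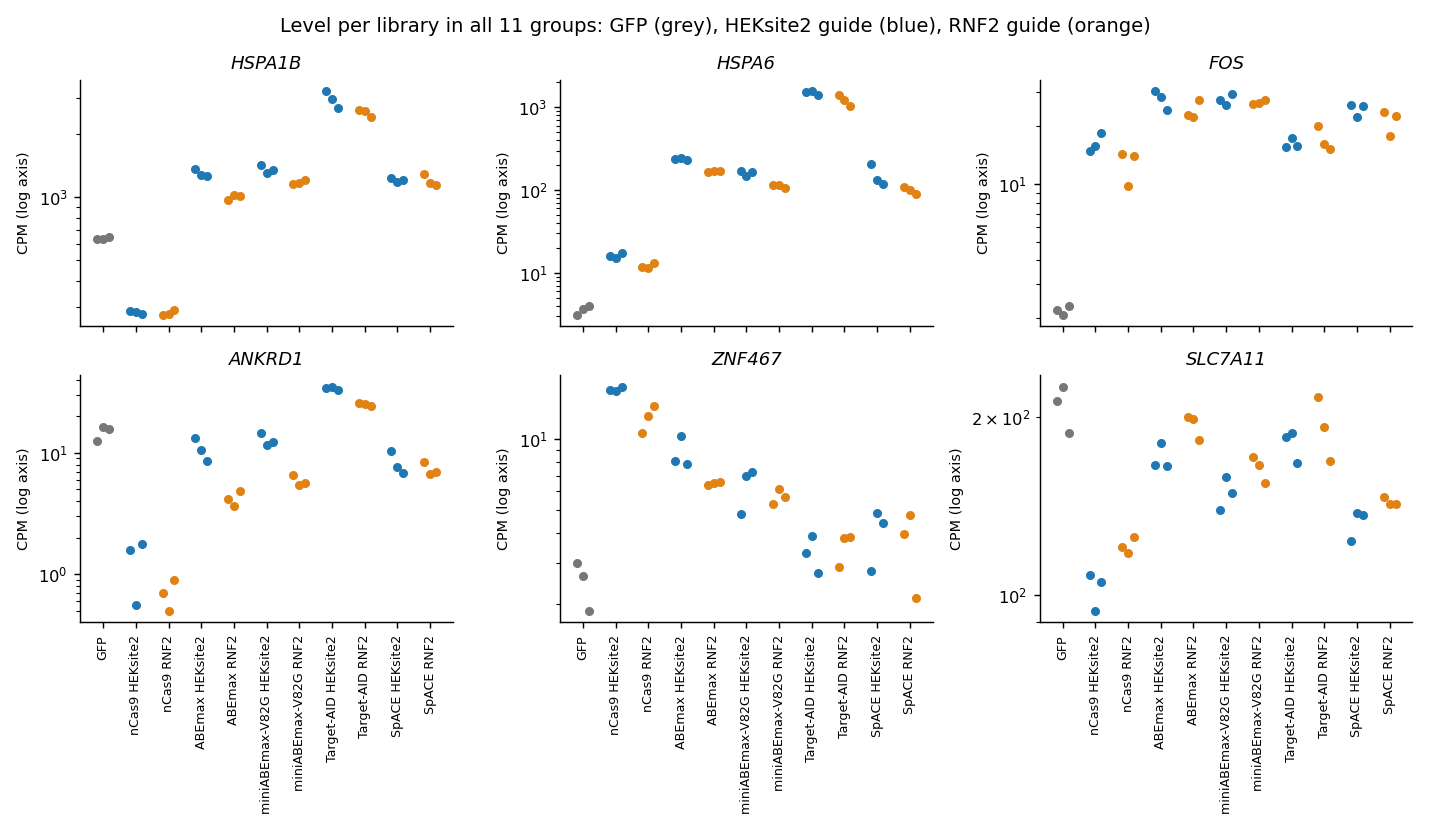
Level in CPM (log axes) of 6 genes in all 33 libraries (points), by group: GFP in grey, HEKsite2-guide groups in blue and RNF2-guide groups in orange. HSPA1B and ANKRD1 are lowest in the nCas9 groups, with means of 282 ± 4.89 and 1.3 ± 0.647 CPM with the HEKsite2 guide, while FOS is lowest in GFP at 2.19 ± 0.124.

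Markers of the line and of other cell types were checked in the same libraries. Sums of counts here are raw and not scaled for the deeper GFP libraries. The 8 genes marking HEK293T summed to 5259 to 6302 counts in nCas9 and 7345 to 8092 in GFP. Of these genes 7 were tested, with a median log2 fold change of 0.07. KRT8 (0.52), INA (0.52) and KRT18 (0.21) were higher, LIN28B (-0.35) lower, and PAX2 had 3 counts in nCas9 and 10 in GFP. The liver list (14 genes) summed to 13 to 23 counts in nCas9 and 11 to 17 in GFP, with APOB, TTR, FGA and AFP at 0. Of its 3 tested members TF was called higher (2.05, adjusted p = 0.00717), and HP had 10 counts in nCas9 and 2 in GFP (ratio 6.22, 95% exact counting interval 1.33 to 58.4). The erythroid list (12) summed to 5 to 10 and 3 to 8, with HBG1 at 0. The blood and immune list (12) summed to 60 to 69 counts and 48 to 52, with CD14 (1.04) among those called higher and CD3E at 0. The mesenchymal list (12) summed to 739 to 933 and 892 to 1147, and COL3A1, ACTA2 (-0.79) and LUM (-0.69) were lower and FN1 (0.19) higher. In the placental list CSH2 alone had 56565 counts in nCas9 and 93896 in GFP (-0.42, adjusted p = 0.00269), while its neighbour CSH1 had 0. Of the called markers, leaving out 1 library ended the calls of KRT18 without the first or the second nCas9 or the first or the second GFP library (adjusted p from 0.0618 to 0.213), TF without the second nCas9 library (adjusted p = 0.0518) and CD14 without the first or the second nCas9 or the first, the second or the third GFP library (adjusted p from 0.0535 to 0.195). It also ended those of ACTA2 without the first or the second nCas9 or the second or the third GFP library (adjusted p from 0.0568 to 0.161), LUM without the first nCas9 or the second GFP library (adjusted p from 0.062 to 0.0737) and FN1 without the second or the third nCas9 or the first GFP library (adjusted p from 0.076 to 0.403). The part of these markers in the changes above was not tested.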

How the data were processed

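HEK293T cells were sequenced as total RNA with a stranded kit, per the labels' protocols. The authors deposited raw counts of 26475 gene symbols in 33 libraries as 1 table. The submitters' processing notes name STAR, GATK 3.8.1, Picard 2.7 and GRCh38 without roles; the counter, its strand setting and its gene models are not stated there or in the labels. All columns were matched to samples by name.

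Counts were filtered with filterByExpr, scaled by TMM and fitted for all 33 libraries with 1 mean per group (22 residual degrees of freedom) in edgeR 4.0.16 (R 4.3.3, limma 3.58.1). The quasi-likelihood F-test was two-sided, with Benjamini-Hochberg adjustment over 14613 genes and a threshold of 0.05. Totals of 7214900 to 11200406 counts in the 6 libraries set the precision, and counting intervals cover counting error only. The procedure was tested on simulated data. Replicate numbers are shared between groups, but same-numbered libraries did not all deviate together (correlations 0.43, -0.10 and 0.19), so no pairing was used. With so few libraries per group, this check cannot show whether the numbers mark pairs. No libraries were alike within sampling noise (chi-square per gene of at least 2.0).

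Genes were named by a rule: the 12 largest rises and falls and the 12 smallest p-values in each direction, taken from called genes whose mean log2 CPM was 1 or more, whose symbol is a named one and whose groups did not overlap, and up to 5 called members of each list by smallest p. The count filter and the mean level covered all 33 libraries, so a gene could be tested and named through its level in the editor groups. Further list members were picked for printing with their values in view. The members, lists and promoter motifs were chosen with earlier results of these data known. Alternatives were RLE scaling, no filter, DESeq2 1.42.0, the 6 libraries alone, a replicate block, the RNF2 guide, each library left out and, added later, a smooth offset per library for gene length, transcript length and GC. Shares of calls by GC, length and mean level are over 10 bins. Some genes are not reported here. Gene positions are from GENCODE 29 and promoters from RefSeq (250 bases upstream), both on GRCh38. Python 3.11.15, pandas 2.3.3, scipy 1.17.1 and matplotlib 3.10.9 were used.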

Additional observations from a re-analysis of the deposited data

Results flagged for a closer look

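For 14 of the named genes the difference from GFP itself differed between the RNF2 and HEKsite2 guides in nCas9, by edgeR's quasi-likelihood test of the guides against each other (log2 of RNF2 guide minus HEKsite2 guide, adjusted over all genes tested). RNF2, the gene targeted by its own guide, differed by -0.81 (adjusted p = 1.51e-09) and NCAPD2, the condensin gene, by -0.42 (adjusted p = 5.24e-07). Lower with the RNF2 guide in all 3 libraries were also CDC6 (-0.36, adjusted p = 0.000288), RFC2, of the clamp loader (-0.27, 0.00365), DAXX (-0.27, 0.00442), MRPS25, of the mitochondrial ribosome (-0.27, 0.0126), PTBP2 (-0.24, 0.0173), and FDXR (-0.54, 0.0242). KLF10 differed by -0.25 (adjusted p = 0.0486), with 105, 91.3 and 97.4 CPM against 125, 103 and 121, so that its libraries overlapped. Higher with the RNF2 guide in all 3 libraries were USP18 (0.58, adjusted p = 0.00376), CTH (0.29, 0.0242), JUN (0.25, 0.0254), DUSP8 (0.66, 0.0254) and SNHG17 (0.34, 0.0457). CTH, JUN, DUSP8 and SNHG17 were called higher than GFP with both guides.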

How the results depend on the processing

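The comparison called 5577 genes, and 4764 to 5104 when single libraries were left out, 5045 with DESeq2, 5589 with RLE scaling, 5423 with no filter and 5734 with the 6 libraries alone. The count of genes at least 2-fold lower, 72, ran from 69 to 112 when single libraries were left out. A replicate block gave 5760 calls (6361 with the 6 libraries alone). The check on deviations is too small to settle whether the replicate numbers pair the samples. With all libraries the block ended none of the calls of the 174 genes named by rule or of the 449 called list members. Between the guides 315 genes were called, and 99 to 228 when single libraries were left out (403 with the block). Of the 174 genes named by rule, RLE scaling ended no call, no filter 1, DESeq2 2, the 6 libraries alone 2 of 171, and a left-out library 3 to 6; of the 449 called list members a left-out library ended 54 to 68, DESeq2 26, no filter 26 and RLE scaling 1. The added length and GC offsets ended 67 of those members and 10 of the genes named by rule, among them HSPA7, CALR, DUSP7, AMOTL1, RBMS3, FDXR, LIG1, NDUFS1 and RING1. With the RNF2 guide in place of HEKsite2, 7 calls of the 174 genes named by rule ended and 2 differences from GFP turned direction: USP18 stood at 0.16 (adjusted p = 0.276) and FDXR at -0.066 (adjusted p = 0.736). That guide also ended 66 calls of the 449 list members. Over all genes 78.6% of the 5577 calls kept their direction and call, and 4 were called in the other direction. The cause of each change was not tested. Low counts limit genes such as CRYAB, HSPA7 and PAX2.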

Other observations

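By GENCODE 29 gene type, 132 transcribed unprocessed pseudogenes were tested, and 36 of them (27.3%) were called higher in nCas9 and 1 (0.758%) lower, with a median log2 fold change of 0.31. Of 160 small nucleolar RNAs tested, 3 were called higher (1.88%) and 13 lower (8.12%), both below the shares over all genes of 19.5% and 18.6%. Long intergenic RNAs had 14 of 152 higher and 17 lower, and antisense genes 23 of 245 in each direction, against 20.6% higher and 19.7% lower among 12832 protein-coding genes. Pseudogene reads can be shared with the parent genes.

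The cyclic AMP response element TGACGTCA was found, on either strand, in the 250 bases upstream of 108 of 2129 genes called higher (5.07%), 45 of 2067 called lower (2.18%), 308 of 10654 tested (2.89%) and 482 of all 27305 promoters (1.77%). The E2F site TTTNNCGC was present in 10.3% of the genes called higher, 9.48% of those called lower and 8.94% of those tested. These shares are descriptions. The genes called higher had a median transcript GC content of 53.7% and those called lower 43.2%. The part of GC content in the shares was not tested.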
